A study of Mus musculus with 12 samples.

Results

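The 10 genes described here encode transcription factors that act in the neural crest and in the glia derived from it, namely Tfap2a, Tfap2b, Sox4, Sox8, Sox9, Sox10, Sox11, Pax3, Snai1 and Snai2. They were chosen by name, with earlier results of these data known. Every probe set whose platform gene symbol is exactly one of these names was taken. This gave 32 of 45037 tested probe sets and 10 of 18193 genes. Their transcripts were measured in the modiolus (the central bony axis of the cochlea, around which the auditory nerve, the spiral ganglion neurons and their glia lie) in CBA/CaJ mice of both sexes aged 8 to 12 weeks. The groups were right ears exposed to ouabain and taken 3 days later, untreated left ears at 3 days, ouabain-exposed right ears at 7 days and untreated left ears at 7 days, with 3 Affymetrix arrays in each group. Ouabain inhibits the sodium pump, and at the round window it kills the type I spiral ganglion neurons of the mouse cochlea; it was given at 3 mM for about 60 min. Each array carried RNA pooled from 2 preparations, and nothing in the labels says which animals entered which pool, so p-values measure the spread between these pools. The left ears had no operation, so the surgery and the drug cannot be told apart.

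The neural crest is a transient population of embryonic cells that leaves the dorsal neural tube and gives rise to peripheral glia, melanocytes, many sensory neurons and parts of the skeleton of the head. In the cochlea the Schwann cells and satellite cells of the auditory nerve come from it, whereas the spiral ganglion neurons come mainly from the otic placode. AP-2, Pax3 and Snail family factors act early in crest formation, SoxE factors (Sox8, Sox9, Sox10) act in crest specification and later in glia and cartilage, and SoxC factors (Sox4, Sox11) act in immature neurons, glia and many other progenitors.

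The arrays measured nerve tissue and its loss of neurons. Of 15 measured markers of spiral ganglion neurons, 13 fell after ouabain at 3 days and 13 at 7 days, and the mean log2 level of the list was between 8.74 and 10.01 at 3 days and between 8.05 and 9.19 at 7 days after ouabain, against 11.34 to 11.57 in the controls of either day. The smallest loss of neuronal transcripts at each day was on ouabain replicate 1, where the list's median difference from the day's controls was -1.45 at 3 days and -2.33 at 7 days, against -2.80 to -2.84 and -3.62 to -3.88 on the other arrays. All 12 arrays had medians between 6.01 and 6.09 on the log2 scale, and pairs of arrays correlated at 0.966 to 0.995 across probe sets. In RNA from whole tissue, more cells of a type and more RNA per cell cannot be told apart.

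Ouabain was followed by more transcript of Tfap2a and Sox4 at 3 days, and of Tfap2a, Sox4, Sox9, Sox10, Snai1 and Snai2 at 7 days. A gene was called higher or lower where limma gave an adjusted p under 0.05 over all probe sets and the fold change was above 1.5, on the probe set with the highest mean over the 12 arrays. By this rule 2 of 10 genes were higher and 0 lower at 3 days, where 15.6% of all genes were called, 7.51% higher and 8.06% lower. At 7 days 6 of 10 were higher and 0 lower, where 15.8% of all genes were called, 7.57% higher and 8.2% lower. The median log2 fold change of the 10 genes was 0.27 at 3 days and 0.67 at 7 days, against 0.01 and 0.03 over all genes. No array overlapped between ouabain and control for 4 genes at 3 days (Tfap2a, Sox4, Sox10, Pax3) and for 6 at 7 days, all higher after ouabain, where 22.4% and 25.6% of all genes were likewise higher without overlap.

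**Figure D1:**
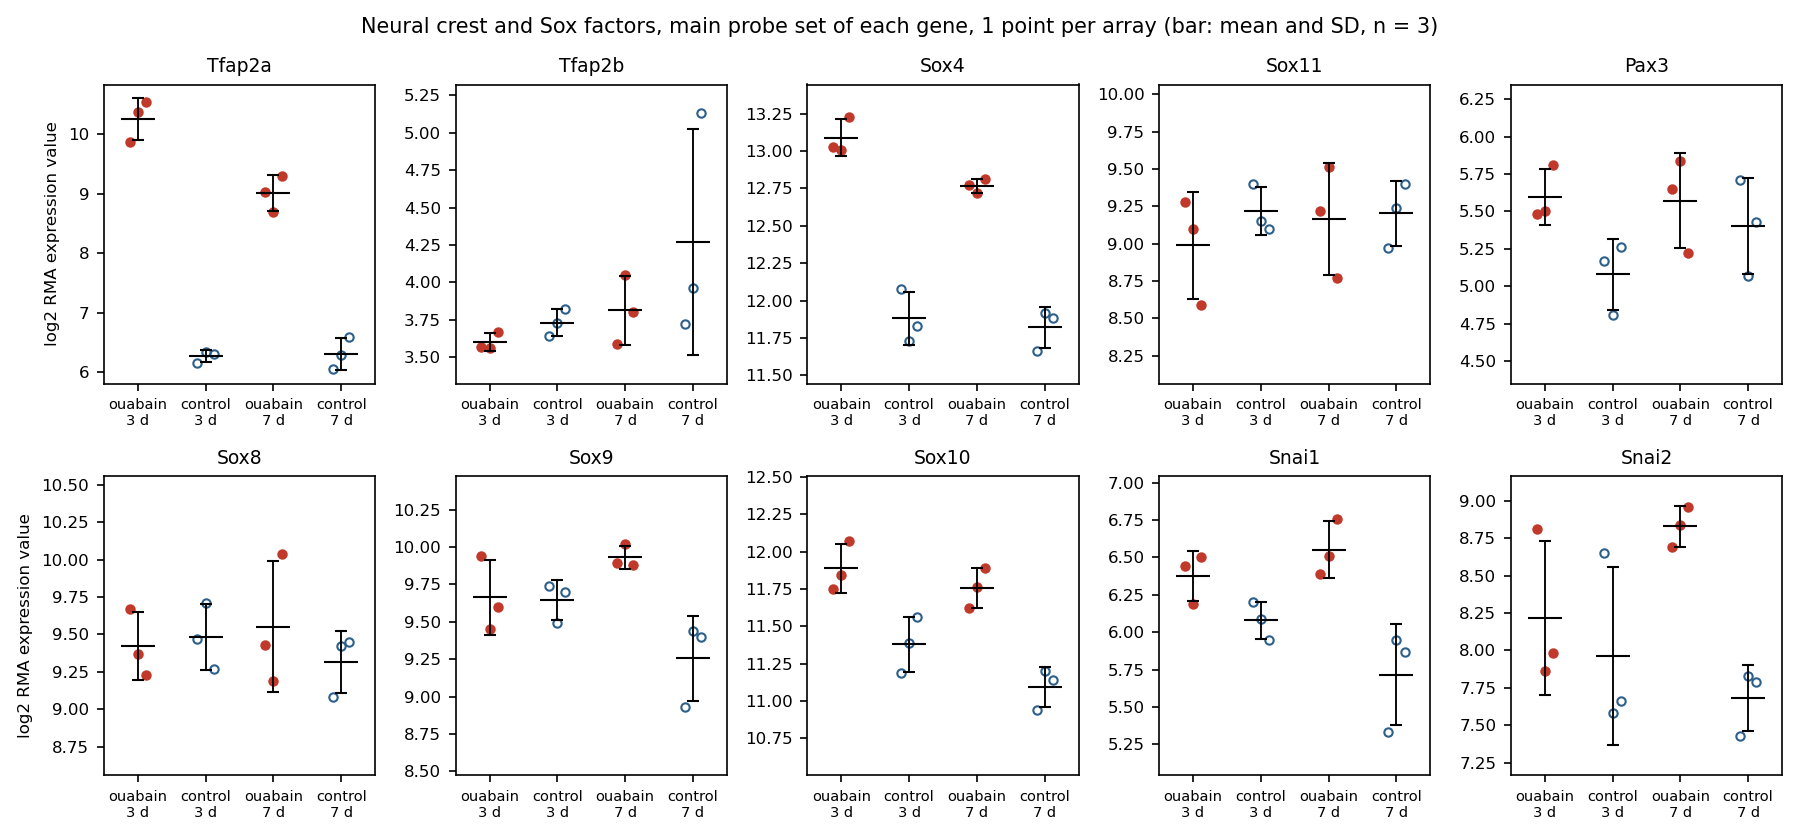
Log2 RMA expression value (y axis, a separate scale for each gene) of the main probe set of the 10 genes on each of the 12 arrays, with filled points for ouabain-exposed ears, open points for control ears and bars for the mean and SD of 3 arrays. Tfap2a and Sox4 stood above the controls on every ouabain array at both days, whereas Sox9, Snai1 and Snai2 were separated only at 7 days and Sox8 and Sox11 at neither day.

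Tfap2a encodes AP-2 alpha, which induces the neural crest together with Pax3 and later acts in melanocytes and in early cells of the Schwann cell lineage. RefSeq gives the gene a pair of start sites on the minus strand of GRCm38.p6, whose windows, from 250 bases before to 50 bases after the start, are shown because Tfap2a had the largest change of the 10 genes; all letters are lower case since none of the 9 motifs searched, listed with Sox4, was found there.
Tfap2a, chr13:40733746-40734045: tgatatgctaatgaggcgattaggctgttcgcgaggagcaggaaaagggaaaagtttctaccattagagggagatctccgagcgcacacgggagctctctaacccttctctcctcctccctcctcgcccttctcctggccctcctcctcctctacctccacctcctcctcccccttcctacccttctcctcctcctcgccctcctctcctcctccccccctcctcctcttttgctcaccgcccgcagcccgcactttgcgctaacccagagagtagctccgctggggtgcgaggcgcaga
Tfap2a, chr13:40734871-40735170: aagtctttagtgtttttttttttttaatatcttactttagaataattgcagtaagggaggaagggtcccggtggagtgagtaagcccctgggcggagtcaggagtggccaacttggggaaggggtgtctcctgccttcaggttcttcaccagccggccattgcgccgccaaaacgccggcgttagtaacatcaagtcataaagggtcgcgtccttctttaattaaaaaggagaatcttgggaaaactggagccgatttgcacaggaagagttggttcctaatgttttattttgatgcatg
At 3 days its main probe set, 1421996_at, read 9.87, 10.37 and 10.54 on the log2 scale after ouabain, against 6.16, 6.34 and 6.31 in controls. The lowest ouabain array thus stood more than 3 log2 units above the highest control array. The log2 fold change was 3.99 ± 0.19 (SE), a 15.9-fold higher level (95% confidence interval 11.9 to 21.2, limma adjusted p = 1.44e-07), which ranked 11 of 18193 genes from the highest. At 7 days the values were 9.03, 8.70 and 9.30 after ouabain, against 6.05, 6.28 and 6.59 in controls. Again the groups did not overlap, and the log2 fold change was 2.71 ± 0.19 (6.52-fold, 95% confidence interval 4.88 to 8.73, limma adjusted p = 1.81e-06), rank 25 of 18193.

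The other Tfap2a probe sets gave the same direction at unequal sizes. Probe set 1426048_s_at read 8.78, 9.41 and 9.82 after ouabain, against 4.98, 4.88 and 5.24 in controls at 3 days, and 7.72, 7.23 and 7.97 after ouabain, against 5.51, 5.48 and 5.14 in controls at 7 days. Its control arrays all lay below 6, and so below the median of all probe sets on an array. The log2 fold change was 4.30 ± 0.24 at 3 days (limma adjusted p = 3.90e-07) and 2.26 ± 0.24 at 7 days (limma adjusted p = 3.29e-05). Probe set 1421995_at stayed at 4.65 or below on every array and differed by 0.58 ± 0.11 at 3 days, just under the fold threshold, and by 0.15 ± 0.11 at 7 days. The suffixes _s_at, _a_at and _x_at mark probe sets whose probes can match several transcripts or share sequence with other genes.

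Tfap2b encodes AP-2 beta, a close relative of AP-2 alpha with roles in crest-derived sympathetic neurons and in the kidney. It did not pass the test at either day, and its probe sets read between 3.21 and 5.13 on all 12 arrays, so little can be said of its level. On the main probe set the log2 difference between ouabain and control was -0.13 (95% confidence interval -0.73 to 0.47) at 3 days and -0.46 (-1.06 to 0.14) at 7 days, where control replicate 3 alone read 5.13 and the other 5 arrays 3.59 to 4.05.

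Sox4 and Sox11, both of the SoxC family, differed in their calls. Their RefSeq windows are shown side by side with capitals for every match to 9 motifs searched on both strands. The motifs, with the share of all 32851 RefSeq windows of 300 bases that hold each, were AP-2 GCCNNNGGC (16.6%), SOX ACAAAG (18.7%) and ACAAT (31%), the Snail E-box CAGGTG (20.2%), TEAD GGAATG (14.7%), CRE TGACGTCA (1.79%), AP-1 TGANTCA (7.81%), CCAAT (37.4%) and TATAAA (13.6%).
Sox4, chr13:28953650-28953949, minus strand: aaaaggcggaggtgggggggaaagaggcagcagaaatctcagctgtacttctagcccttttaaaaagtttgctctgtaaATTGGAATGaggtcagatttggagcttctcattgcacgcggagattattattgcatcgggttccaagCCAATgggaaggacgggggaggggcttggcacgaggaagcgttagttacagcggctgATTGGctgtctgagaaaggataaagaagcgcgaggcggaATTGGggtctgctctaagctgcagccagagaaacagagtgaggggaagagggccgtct
Sox11, chr12:27342669-27342968, minus strand: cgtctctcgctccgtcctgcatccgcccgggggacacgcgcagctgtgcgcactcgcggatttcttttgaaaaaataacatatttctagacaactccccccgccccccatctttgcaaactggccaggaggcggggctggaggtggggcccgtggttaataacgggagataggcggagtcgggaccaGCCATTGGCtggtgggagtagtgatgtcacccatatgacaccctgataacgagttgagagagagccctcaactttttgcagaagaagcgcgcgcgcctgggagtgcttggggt
The Sox4 window held CCAAT 4 times, at 171, 104, 47 and 8 bases before the start and on the opposite strand at all but the 104-base site, and GGAATG at 168 bases, which overlaps the CCAAT match at 171. The Sox11 window held GCCATTGGC, a match to the AP-2 pattern, at 63 bases before the start, with CCAAT on the opposite strand inside it. GC content was 52.0% for Sox4 and 58.7% for Sox11, against a median of 52.7% over all windows. A match describes letters and does not show that a factor binds.

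Sox4 was higher after ouabain at both days. Its main probe set, 1433575_at, read 13.03, 13.01 and 13.23 after ouabain, against 12.08, 11.73 and 11.83 in controls at 3 days. At 7 days it read 12.77, 12.72 and 12.81 after ouabain, against 11.66, 11.92 and 11.88 in controls. The groups did not overlap at either day and the ouabain arrays of 7 days lay closest together. The log2 fold change was 1.21 ± 0.11 at 3 days (2.31-fold, 95% confidence interval 1.96 to 2.73, limma adjusted p = 9.31e-06) and 0.95 ± 0.11 at 7 days (1.93-fold, 1.63 to 2.27, limma adjusted p = 5.45e-05). Of 8 Sox4 probe sets, 5 were higher at both days, 2.31- to 4.01-fold at 3 days and 1.93- to 2.70-fold at 7 days. The 3 that did not pass (1455867_at, 1458332_x_at and 1443778_at) read below 6 on every array.

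Sox11, the closest relative of Sox4, which acts in immature neurons and after nerve injury in sensory neurons, showed no called change on any of its 6 probe sets. The main probe set, 1453125_at, read 9.28, 9.10 and 8.59 after ouabain, against 9.40, 9.15 and 9.10 in controls at 3 days, and 9.22, 9.51 and 8.77 after ouabain, against 8.97, 9.24 and 9.40 in controls at 7 days. The groups overlapped at both days, and the lowest reading of each day was ouabain replicate 3. Its log2 difference was -0.23 (95% confidence interval -0.68 to 0.22, limma adjusted p = 0.52) at 3 days and -0.03 (-0.48 to 0.41, limma adjusted p = 0.935) at 7 days. Over the 6 probe sets the differences ran between -0.28 and 0.02 at 3 days and between -0.11 and 0.12 at 7 days.

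Among the SoxE genes, Sox10 and Sox9 were higher at 7 days and Sox8 passed at neither day. Sox10 maintains Schwann cell identity and drives myelin genes together with Egr2. Its main probe set, 1451689_a_at, read 11.75, 11.84 and 12.07 after ouabain, against 11.19, 11.39 and 11.56 in controls at 3 days. At 7 days it read 11.62, 11.76 and 11.89 after ouabain, against 10.94, 11.20 and 11.14 in controls. The ouabain arrays lay above the controls at both days. At 3 days the log2 fold change was 0.51 ± 0.12 (1.43-fold, 95% confidence interval 1.18 to 1.72, limma adjusted p = 0.00917), which missed the fold threshold, and at 7 days 0.66 ± 0.12 (1.58-fold, 1.31 to 1.91, limma adjusted p = 0.00184). Without control replicate 3 the 3-day value was 0.60 and past the threshold. The other 2 Sox10 probe sets, 1424985_a_at and 1425369_a_at, gave 0.39 and 0.22 at 3 days and 0.32 and 0.29 at 7 days, none of them called.

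Sox9 acts in crest specification, in cartilage and, in the cochlea, in supporting cells and glia. On probe set 1451538_at it read 9.94, 9.45 and 9.60 after ouabain, against 9.74, 9.49 and 9.70 in controls at 3 days, which overlapped. At 7 days it read 9.89, 10.02 and 9.88 after ouabain, against 8.93, 9.44 and 9.40 in controls, which did not. Its log2 fold change was 0.02 ± 0.15 at 3 days (limma adjusted p = 0.953) and 0.67 ± 0.15 at 7 days (1.60-fold, 95% confidence interval 1.27 to 2.01, limma adjusted p = 0.00592). A further probe set, 1424950_at, gave 0.19 ± 0.14 and 0.78 ± 0.14, called at 7 days (limma adjusted p = 0.00124), and the dim 1433889_at gave 0.17 and 0.23, not called. The 7-day value depends in part on control replicate 1, the lowest array, without which it was 0.51 with an adjusted p of 0.0247 and under the fold threshold. Control ears at 7 days read below those at 3 days on every array, with a log2 difference of -0.39 ± 0.15 (limma adjusted p = 0.701).

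Sox8, which overlaps in function with Sox9 and Sox10 in the crest and in glia, has a single probe set, 1435438_at. It read 9.67, 9.37 and 9.23 after ouabain, against 9.47, 9.71 and 9.27 in controls at 3 days, and 9.43, 9.19 and 10.04 after ouabain, against 9.08, 9.42 and 9.45 in controls at 7 days. The groups overlapped at both days. The log2 difference was -0.06 (95% confidence interval -0.51 to 0.38) at 3 days and 0.24 (-0.21 to 0.68) at 7 days.

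Pax3, a paired box factor of the dorsal neural tube that marks crest progenitors, melanoblasts and immature Schwann cells, was dim. All 3 probe sets read between 3.85 and 5.84 on the 12 arrays. The main probe set, 1420389_at, read 5.48, 5.50 and 5.81 after ouabain, against 5.17, 4.81 and 5.26 in controls at 3 days, without overlap, and 5.65, 5.84 and 5.22 after ouabain, against 5.71, 5.07 and 5.43 in controls at 7 days, with overlap. Its log2 difference of 0.51 ± 0.19 at 3 days did not pass (limma adjusted p = 0.0807), and neither did 0.17 ± 0.19 at 7 days (limma adjusted p = 0.592). Only probe set 1441743_at passed, at 3 days, with 5.21, 5.19 and 5.47 after ouabain, against 4.81, 4.92 and 4.19 in controls (0.65 ± 0.17, limma adjusted p = 0.0145). At 7 days it gave 0.20 ± 0.17, and its 7-day controls, at 5.18, 5.11 and 5.35, lay above its 3-day controls on every array.

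Snai1 and Snai2 encode zinc finger repressors that lower epithelial cadherins when crest cells leave the neural tube. The RefSeq window of Snai1 is shown because, like that of Sox11, it holds a match to the AP-2 pattern, and it also holds matches to a SOX and a Snail motif (capitals).
Snai1, chr2:167537945-167538244, plus strand: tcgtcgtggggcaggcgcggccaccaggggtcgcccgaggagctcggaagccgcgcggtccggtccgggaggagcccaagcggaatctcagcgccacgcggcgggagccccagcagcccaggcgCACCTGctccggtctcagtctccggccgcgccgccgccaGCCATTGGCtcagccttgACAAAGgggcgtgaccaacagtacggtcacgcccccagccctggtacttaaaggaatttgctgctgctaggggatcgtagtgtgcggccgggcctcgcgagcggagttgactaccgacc
GCCATTGGC stood at 87 bases before the start, with CCAAT on the opposite strand inside it, ACAAAG at 69 bases, and CACCTG, the Snail E-box on the opposite strand, at 126 bases. GC content was 70.0%. In the windows of the 6 genes that had one, 7 in all, the AP-2 pattern occurred only in Sox11 and Snai1, the Tfap2b window held 1 ACAAT at 100 bases, and that of Sox8 held no motif.

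Both Snail genes were called higher at 7 days and not at 3 days. Snai1 (1448742_at) read 6.39, 6.51 and 6.76 after ouabain, against 5.33, 5.95 and 5.87 in controls at 7 days, without overlap. At 3 days it read 6.44, 6.19 and 6.50 after ouabain, against 6.20, 6.09 and 5.95 in controls, where the lowest ouabain array lay just under the highest control. For Snai1 the log2 fold change was 0.29 ± 0.16 at 3 days (limma adjusted p = 0.247) and 0.84 ± 0.16 at 7 days (1.79-fold, 95% confidence interval 1.40 to 2.28, limma adjusted p = 0.00223). Control replicate 1 was the lowest 7-day array, and without it the value was 0.64 and still called (adjusted p = 0.00631). As with Sox9, 7-day controls read below 3-day controls on every array, with a log2 difference of -0.37 ± 0.16 that did not pass (limma adjusted p = 0.72); the 10 genes held 2 such cases, and 7.44% of all genes did.

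Snai2 (1447643_x_at) read 8.69, 8.84 and 8.96 after ouabain, against 7.43, 7.83 and 7.79 in controls at 7 days, with no overlap. At 3 days it read 8.81, 7.86 and 7.98 after ouabain, against 8.65, 7.58 and 7.66 in controls, where replicate 1 of either ear was high. The log2 fold change was 0.25 ± 0.29 at 3 days (limma adjusted p = 0.632) and 1.15 ± 0.29 at 7 days (2.21-fold, 95% confidence interval 1.44 to 3.41, limma adjusted p = 0.0108). Probe set 1418673_at gave 0.10 ± 0.25 and 0.78 ± 0.25, called at 7 days (limma adjusted p = 0.0392). Without ouabain replicate 1 the 3-day value of the main probe set was -0.05.

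Some markers of connective tissue were higher after ouabain at 7 days, where 7.57% of all genes were called higher and 8.2% lower. Of 13 measured fibroblast genes, 6 were higher and 1 lower at 7 days, the last being Thy1, which neurons also express, and the mean log2 level of the list was 10.60 to 10.91 after ouabain, against 10.16 to 10.42 in controls, without overlap. At 3 days 1 was higher and 1 lower (3 and 1 without control replicate 1), and the list was highest on replicate 1 of either ear, at 10.61 after ouabain and 10.54 in controls, against 10.21 to 10.39 on the other 3-day arrays. Of 7 measured osteoblast genes, 1 was higher at 7 days (2 without ouabain replicate 2 or without control replicate 1), with list levels of 10.17 to 10.46 after ouabain and 9.38 to 9.90 in controls. At 3 days that list too was highest on replicate 1 of either ear, at 9.78 after ouabain and 10.04 in controls. The difference of the responses passed for 0 of the 13 fibroblast genes and 0 of the 7 osteoblast genes. All 7 osteoblast genes and 12 of 13 fibroblast genes read above 6 on all 12 arrays. At 7 days ouabain replicate 1 had the lowest Snai1 and Snai2 of its group and the highest fibroblast and osteoblast levels, 10.91 and 10.46. Control replicate 1 had the lowest Snai1 and Snai2 of its group and the highest osteoblast level, 9.90. At 3 days Snai2, like both lists, was highest on replicate 1 of either ear, at 8.81 after ouabain and 8.65 in controls. Snai1 at 3 days was highest on ouabain replicate 3. These orders come from 3 arrays a group and describe those arrays only. The part of fibroblasts and osteoblasts in the Snai1, Snai2 and Sox9 values was not tested.

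**Figure D2:**
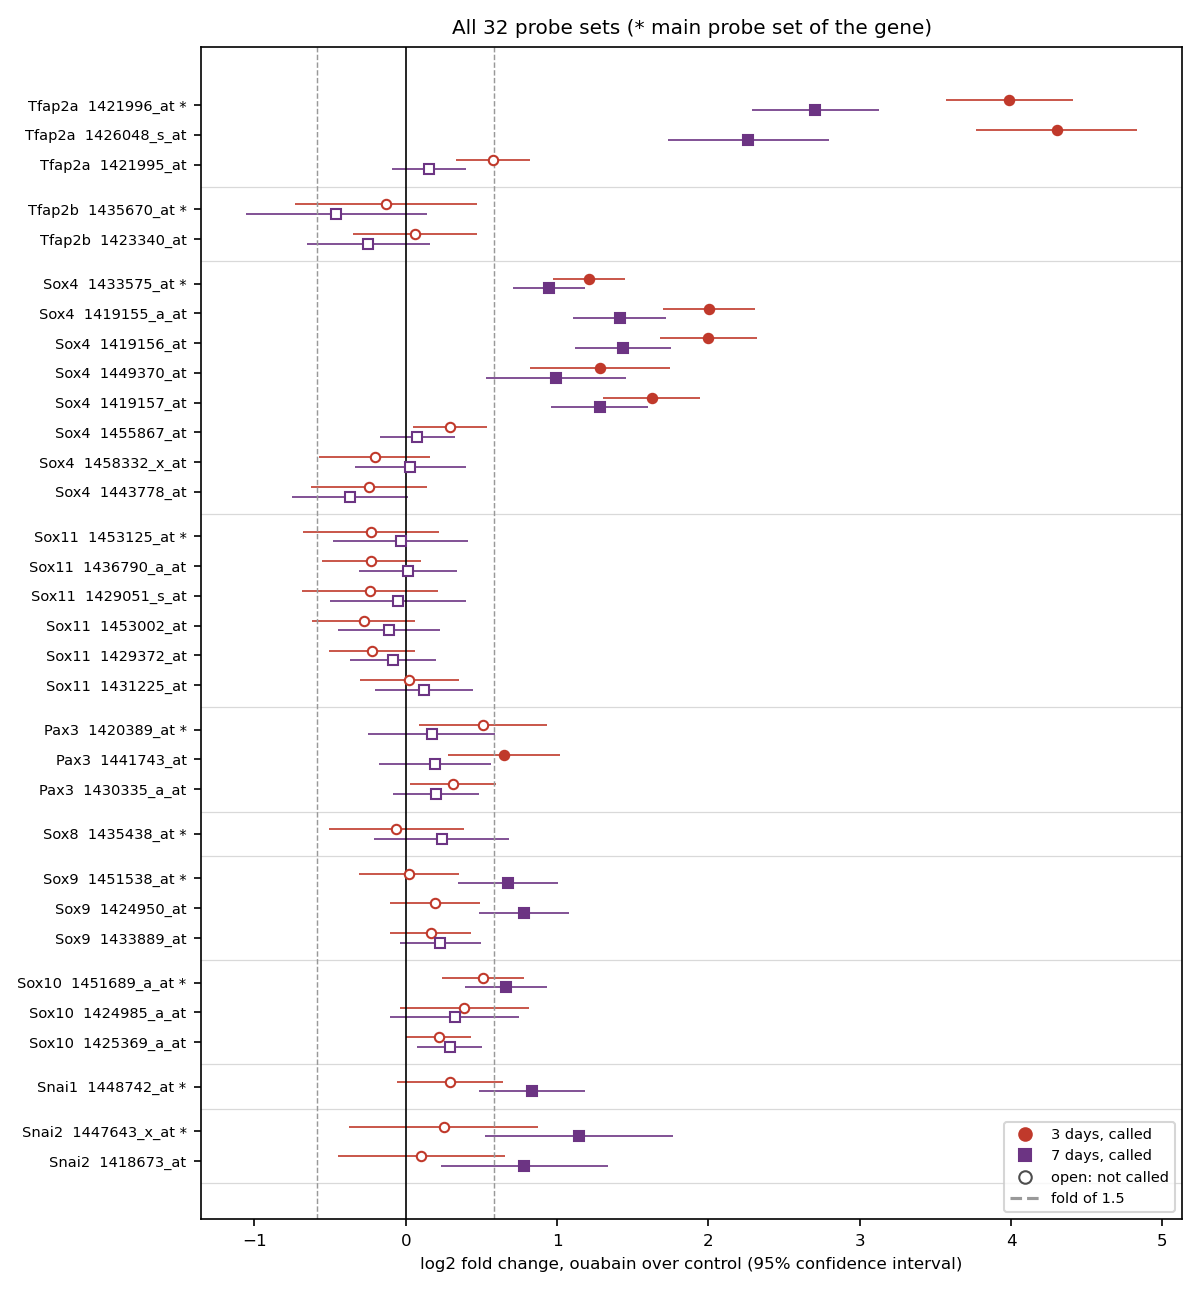
Log2 fold change of ouabain over control (x axis) with its 95% confidence interval for all 32 probe sets, grouped by gene, with circles for 3 days, squares for 7 days, filled symbols for called probe sets and dashed lines at a fold of 1.5. At 3 days 8 probe sets were filled, 7 of them of Tfap2a and Sox4, and at 7 days 13, which added Sox9, Sox10, Snai1 and Snai2.

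Over all 32 probe sets, 8 were higher and 0 lower at 3 days, where 5.71% of all probe sets were called higher and 6.58% lower, and 13 were higher and 0 lower at 7 days, where these shares were 6.14% and 6.51%. Of the 32, 20 read above 6 on at least 3 arrays and 15 on all 12. Probe sets of 1 gene measure the same RNA and are not independent.

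The 3-day and 7-day responses were also set against each other. For none of the 10 genes did the difference of the responses pass, where 1.17% of all genes did. Of the 10, 4 had an unadjusted p under 0.05, against 16.1% of all genes. Tfap2a came closest, with a response 1.28 ± 0.27 log2 units smaller at 7 days (limma adjusted p = 0.0553). On its probe set 1426048_s_at the 7-day response minus the 3-day response was -2.04 ± 0.35 (limma adjusted p = 0.0183), the only called difference among the 32 probe sets, where 0.653% of all probe sets were called lower. Sox9, Snai1 and Snai2 had responses larger at 7 days by 0.65 ± 0.21, 0.54 ± 0.23 and 0.90 ± 0.40 log2 units, with limma adjusted p-values of 0.201, 0.336 and 0.383. In this fit, their calls at 7 days and not at 3 days came with no called difference between days. Sox4 and Sox10 differed by -0.26 ± 0.15 and 0.15 ± 0.17. No gene of the 10 passed between 7-day and 3-day controls, where 0.0165% of all genes were called. In that comparison 3 of the 10 had an unadjusted p under 0.05, against 7.93% of all genes.

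Other genes of the crest programme were described by a list of 30, of which 28 were measured. At 3 days 5 were higher and 1 lower, and at 7 days 9 were higher and 1 lower, with medians of 0.04 and 0.33 against 0.01 and 0.03 over all genes. For this list and the lists below, the shares of all genes were 7.51% higher and 8.06% lower at 3 days. At 7 days they were 7.57% and 8.2%. Foxd3, a forkhead factor of premigratory crest and glial precursors, read 9.06, 9.27 and 9.55 after ouabain, against 6.86, 6.94 and 7.03 in controls at 3 days, and 8.97, 8.82 and 9.35 after ouabain, against 6.67, 6.82 and 6.47 in controls at 7 days. The rise was much the same at both days, 2.35 ± 0.15 and 2.39 ± 0.15 on the log2 scale (limma adjusted p = 9.82e-07 and 9.30e-07). Zeb2, a repressor needed for crest migration and for Schwann cell myelination, rose by 2.39 ± 0.15 and 1.90 ± 0.15, on 4 of its 5 probe sets at 3 days and all 5 at 7 days. Zeb1 (0.95 and 1.20) and Ets1 (0.61 and 0.76) were higher at both days, Myc was called at 3 days (1.52), and Twist1, Prdm1, Foxc1, Sox5 and Sox6 were called at 7 days (0.60 to 0.77). Rxrg, the retinoid X receptor gamma, was the lower gene at both days (-1.39 and -1.30). The responses of Myc (-0.95) and Twist1 (0.96) differed between days, whereas for Prdm1, Foxc1, Sox5 and Sox6 the difference between days did not pass. The genes named here other than Foxd3 and Zeb2 were chosen after their values were seen.

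Of 14 other Sox genes, 1 was higher at 3 days and 4 at 7 days, and none was lower. The 3-day count is near the share of all genes called higher, 7.51%, and the 7-day share was 7.57%. Sox2, which marks glial precursors and repair Schwann cells and opposes Egr2 in myelination, read 11.67, 11.40 and 12.06 after ouabain, against 10.37, 10.55 and 10.53 in controls at 3 days. At 7 days it read 11.61, 10.93 and 11.54 after ouabain, against 10.01, 10.01 and 10.44 in controls. It did not overlap at either day, and its log2 fold change was 1.22 ± 0.20 and 1.21 ± 0.20 (limma adjusted p = 6.99e-04 and 8.22e-04). The SoxD genes Sox5 (0.64), Sox6 (0.77 ± 0.16) and Sox13 (0.74) were higher at 7 days, though on 1 of 4 probe sets for Sox6. Sox12, the remaining SoxC gene, chosen after its values were seen, read 7.04, 6.99 and 7.14 after ouabain, against 7.72, 7.50 and 7.58 in controls at 3 days, and its differences of -0.54 ± 0.10 at 3 days and -0.38 ± 0.10 at 7 days (limma adjusted p = 0.00172 and 0.0149) missed the fold threshold. At 3 days the count was 2 without ouabain replicate 3 or control replicate 1, and 4, of which 1 was lower, without control replicate 2.

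Genes that Sox10 drives or works with in Schwann cells moved in opposite directions. Of 25 listed and 22 measured, 4 were higher and 2 lower at 3 days, and 3 higher and 8 lower at 7 days, with medians of 0.08 and -0.17. Erbb3, the neuregulin receptor of Schwann cells and a Sox10 target, read 11.96, 12.13 and 12.29 after ouabain, against 10.82, 10.85 and 10.93 in controls at 3 days, and 11.51, 11.66 and 11.82 after ouabain, against 10.42, 10.50 and 10.44 in controls at 7 days. Its log2 fold change was 1.26 ± 0.10 and 1.22 ± 0.10, with no overlap, though its second probe set was not called. Ednrb, the endothelin receptor of crest-derived cells, was higher by 1.83 ± 0.16 and 1.68 ± 0.16 on all 3 probe sets.

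On the myelin side, Egr2, the zinc finger factor that drives myelination with Sox10, read 9.87, 10.53 and 10.28 after ouabain, against 10.77, 11.28 and 10.97 in controls at 3 days. At 7 days it read 10.08, 9.28 and 9.93 after ouabain, against 11.54, 11.48 and 11.50 in controls. It was thus lower on every ouabain array, with log2 fold changes of -0.78 ± 0.21 (limma adjusted p = 0.0169) and -1.74 ± 0.21 (limma adjusted p = 7.56e-05). The 3-day call was lost with a fold above 2, with the methods' t-test after adjustment over all probe sets, without ouabain replicate 1 (limma adjusted p = 0.0682, or 0.0689 with replicate 1 of ouabain and control at 7 days left out too) and without control replicate 2 (limma adjusted p = 0.0735). Ncmap, a protein of non-compact myelin, was lower as well (-1.47 ± 0.14 and -2.48 ± 0.14). Pmp22, Mal, Gjb1, Gjc3, Dhh and Ret were lower at 7 days (-0.60 to -1.31), and Nfatc4, the calcineurin-dependent partner of Sox10, was higher (0.76).

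For 5 of these 22 genes the responses differed between days, all toward lower values at 7 days. Gjc3, a connexin of myelinating glia, was higher at 3 days (0.72 ± 0.14) and lower at 7 days (-1.25 ± 0.14), with a difference of -1.97 (limma adjusted p = 8.60e-04). Pou3f1, a factor of promyelinating Schwann cells, read 11.97, 12.01 and 11.92 after ouabain, against 10.56, 10.57 and 10.57 in controls at 3 days, and did not differ past the threshold at 7 days (0.01 ± 0.13). Gjb1 differed by -1.68, Dhh by -1.22 and Ncmap by -1.01. These genes were chosen after their values were seen. Of 16 measured markers of repair and immature Schwann cells, 11 rose and 1 fell at 3 days (Shh) and 11 rose and 2 fell at 7 days (Shh and Egfl8), with list levels of 9.28 to 9.60 after ouabain and 7.92 to 8.13 in controls over both days; Foxd3 and Sox2 are on that list as well.

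**Figure D3:**
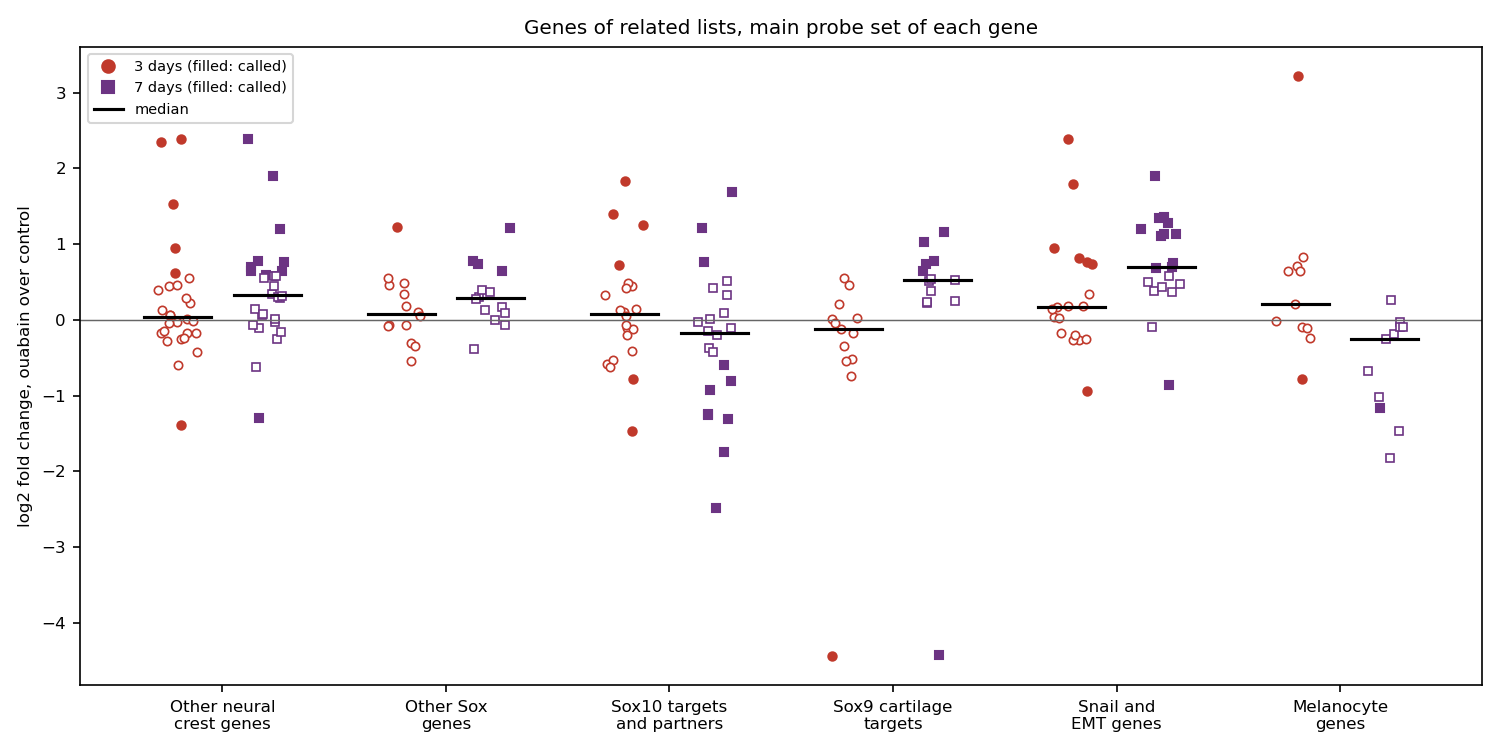
Log2 fold change of ouabain over control (y axis) for the main probe set of each measured gene in 6 related lists, with circles for 3 days, squares for 7 days, filled symbols for called genes and a bar for the median. The medians of the Sox9 cartilage and Snail lists were higher at 7 days than at 3 days. The difference of the responses passed for 0 of 13 and 1 of 19 of their genes. The Sox10 list held called genes on both sides of 0.

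Cartilage genes that Sox9 drives with Sox5 and Sox6 showed 0 higher and 1 lower of 13 at 3 days, and 5 higher and 1 lower at 7 days, with medians of -0.13 and 0.52. The difference of the responses passed for 0 of the 13, where 1.17% of all genes did. Col2a1, the main cartilage collagen, read 10.75, 10.87 and 11.11 after ouabain, against 9.57, 9.96 and 9.71 in controls at 7 days (1.16 ± 0.19, limma adjusted p = 7.61e-04), and 10.21, 9.87 and 9.65 after ouabain, against 10.03, 9.30 and 9.77 in controls at 3 days (0.21 ± 0.19). Col11a1 (1.02), Col9a1 (0.74), Sox5 and Sox6 were the others higher at 7 days. Sox5 and Sox6 are also on the crest list and the list of other Sox genes. The lower gene was Hapln1, a link protein of cartilage and of the matrix around neurons, at -4.44 ± 0.65 and -4.43 ± 0.65 on all 4 probe sets, with 6.65 on ouabain replicate 1 at 3 days against 4.02 and 4.10 on the other ouabain arrays and 9.12 to 9.62 in controls. The 3-day count was 3 without ouabain replicate 1, all lower, and 3 without control replicate 2, of which 2 were higher. It was 2 without ouabain replicate 3 or control replicate 1, of which 1 was higher each time.

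The Snail and epithelial-mesenchymal list held 6 higher and 1 lower of 19 at 3 days and 11 higher and 1 lower at 7 days, with medians of 0.17 and 0.70. The difference of the responses passed for 1 of the 19 (Twist1). Vim, an intermediate filament of mesenchymal and immature glial cells, read 13.58, 13.69 and 13.78 after ouabain, against 11.84, 11.97 and 11.85 in controls at 3 days (1.80 ± 0.10), and rose by 1.36 ± 0.10 at 7 days. Cdh2, the neuronal and mesenchymal cadherin, was lower at both days (-0.94 and -0.85). Cdh1, the epithelial cadherin that Snail factors repress, did not pass at either day (-0.27 ± 0.09, limma adjusted p = 0.0518, and -0.10 ± 0.09). Among the genes higher at 7 days were also Krt8 (1.34), Krt18 (1.14) and Cldn3 (0.75), which belong to the epithelial side of the list. Other than Vim, these were chosen after their values were seen. Zeb1, Zeb2, Twist1 and Twist2 are on this list and on the crest list.

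Melanocytes are crest-derived pigment cells that share Sox10, Pax3 and Tfap2a with glia, and 11 of 12 listed genes were measured, 3 of them above 6 on all arrays. At 3 days 1 was higher and 1 lower, and at 7 days 0 and 1, or 0 and 5 without control replicate 2. Over all genes 7.51% were higher and 8.06% lower at 3 days, and 8.2% were lower at 7 days. The lower genes were Kit at 3 days (-0.78 ± 0.17, limma adjusted p = 0.00557, on 1 of 2 probe sets) and Pmel at 7 days (-1.16 ± 0.20, limma adjusted p = 0.00099). Mitf, the master factor of melanocytes, did not pass at either day (-0.24 ± 0.12 and -0.25 ± 0.12). Tyrp1, a melanin enzyme, read 7.84, 7.92 and 7.88 after ouabain, against 4.52, 4.82 and 4.65 in controls at 3 days, and 4.57, 5.14 and 5.24 after ouabain, against 4.61, 4.62 and 4.92 in controls at 7 days. Its 3-day rise of 3.22 ± 0.16 was called on all 3 probe sets, and the 7-day value was 0.27 ± 0.16, a difference of -2.96 ± 0.22 (limma adjusted p = 7.77e-05). Dct, another enzyme of that pathway, read 10.61, 9.64 and 5.34 after ouabain, against 8.00, 7.96 and 7.49 in controls at 3 days, and 7.26, 6.80 and 7.00 after ouabain, against 10.78, 5.40 and 10.35 in controls at 7 days. It thus varied by more than 5 log2 units among ouabain arrays at 3 days and among controls at 7 days, by less than 1 in the other groups, and did not pass. Tyr was high on the same arrays as Dct. On their main probe sets Tfap2a, Pax3 and Sox10 varied by under 1 log2 unit within each group. Tfap2a probe set 1426048_s_at read from 8.78 to 9.82 among ouabain arrays at 3 days. The part of melanocytes in the values of the 10 genes was not tested.

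**Figure D4:**
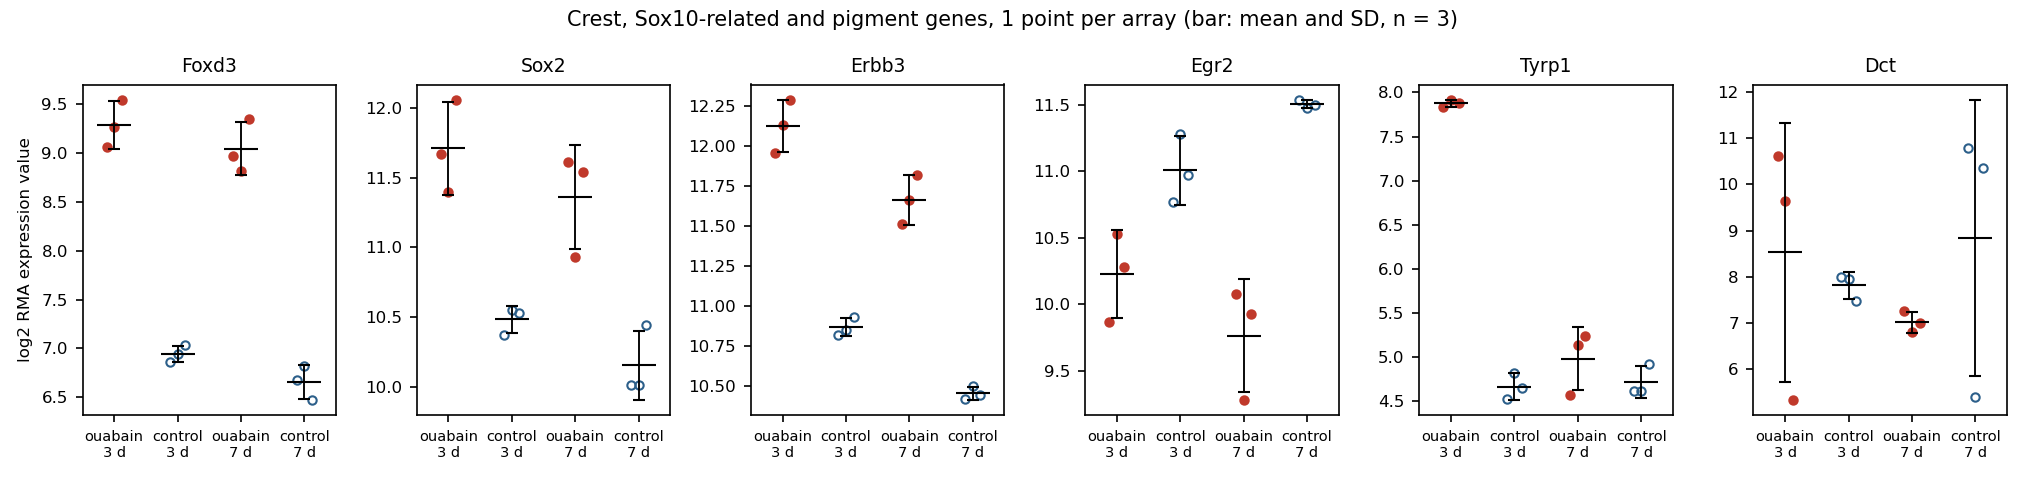
Log2 RMA expression value (y axis, a separate scale for each gene) of Foxd3, Sox2, Erbb3, Egr2, Tyrp1 and Dct on each array, with filled points for ouabain-exposed ears, open points for control ears and bars for the mean and SD of 3 arrays. Foxd3, Sox2 and Erbb3 were higher and Egr2 lower after ouabain at both days, Tyrp1 was higher at 3 days only, and Dct varied widely among ouabain arrays at 3 days and controls at 7 days.

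Markers of other cells were counted as well. Over all genes 7.51% were called higher and 8.06% lower at 3 days, and 7.57% and 8.2% at 7 days. Counts of 0 to 2 in such short lists do not set them apart from these shares. All 15 macrophage genes rose at 3 days and 14 of them at 7 days, with list levels of 10.12 to 10.45 after ouabain and 8.22 to 8.72 in controls over both days. All 19 measured cell cycle genes were higher at 3 days, and at 7 days limma called 0, of which 0 had an unadjusted p under 0.05, with levels of 7.91 to 8.65 after ouabain and 6.03 to 6.16 in controls at 3 days. At 7 days control replicate 1 was the lowest control array on the main probe sets of all 10 genes but Pax3. It had a cell cycle level of 7.85, against 6.06 and 6.22 on the other controls and 6.30 to 6.84 after ouabain. Without that array 3 cell cycle genes were higher at 7 days. Of 12 measured genes of supporting cells, 2 were lower at 3 days, and 1 was higher and 2 lower at 7 days. Of 9 lateral wall genes 1 was lower at 3 days and limma called 0 at 7 days. Of 10 endothelial genes it called 0 at either day, with an unadjusted p under 0.05 for 2 at 3 days and 4 at 7 days. Over all genes 39.3% and 42.2% had such a p. The part of macrophages, dividing cells and lost neurons in the values of the 10 genes was not tested.

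Across the 12 arrays the genes whose main probe set followed Tfap2a most closely were Gusb (Pearson r = 0.996), Vim (0.995) and Cmtm3 (0.995), all higher at both days. Sox4 was followed most closely by Ykt6 (0.989), Sox10 by Myo1c (0.978), Snai1 by P2ry1 (0.961), Sox9 by Cnot6l (0.936) and Snai2 by Fzd7 (0.926). These correlations describe 4 groups of arrays from a shared tissue and rest largely on the difference between the groups.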

How the data were processed

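Modiolus RNA of 12 samples, each pooled from 2 preparations, was hybridized to Affymetrix whole-genome mouse arrays, 3 in each of 4 groups taken from the sample titles. The authors ran RMA in the Affymetrix Expression Console, which corrects background, quantile normalizes the arrays and summarises each probe set, and the deposited values, log2 expression values per probe set, were used as they stand. MAS5 is also named in the submitters' processing notes, and versions are not given in the sources used here. RMA forces the arrays to a common distribution, so each change is relative to the other probe sets of an array. The RNA input stated in the methods differs from that in the labels. Of 45101 rows, 64 were array controls and were dropped, 932 carry several symbols and 9160 none, and 34945 carry 1 symbol, of which 34741 were matched by Entrez identifier to 18193 genes in all. The arrays' number limits the precision.

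The 4 group means of 45037 probe sets were fitted and moderated with limma 3.58.1 (R 4.3.3), and contrasts gave ouabain against control at 3 and 7 days, the difference of these responses, and the controls of 7 days over those of 3 days. Calls needed a p adjusted by Benjamini-Hochberg under 0.05 together with a fold above 1.5, the fold threshold of the study's methods, which use an unpaired test. The probe set with the highest mean stands for a gene. Python 3.11.15 made the summaries and figures. The 10 genes, the 15 lists of related genes and of cell markers, and the rule for named genes were chosen with earlier results of these data known. The rule names the 10 genes with every probe set, the 2 called genes with the largest change at each day in each list, Sox2, Foxd3, Egr2, Erbb3 and Mitf, and the 3 genes whose values follow a called member most closely over the arrays, of which the closest are given. Listed genes that no probe set names alone were not used here. Promoter windows came from RefSeq (GRCm38.p6), and 6 of 10 genes matched; Sox9, Sox10, Pax3 and Snai2 did not. The procedure was tested on simulated data.

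Alternatives were the methods' t-test with and without adjustment, separate fits of each day's 6 arrays, a replicate block, no fold threshold, a fold above 2, only probe sets above 6 on at least 3 arrays, subtraction of each array's 75th percentile, quantile normalization applied again, a trend with robust moderation, array weights, averaging a gene's probe sets, each array left out in turn and, added after the data were seen, a fit without replicate 1 of ouabain at 3 days, ouabain at 7 days and control at 7 days.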

Additional observations from a re-analysis of the deposited data

Results flagged for a closer look

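Tfap2a probe set 1426048_s_at responded less at 7 days than at 3 days, with a 7-day response minus 3-day response of -2.04 ± 0.35 on the log2 scale, tested as an interaction contrast in limma (adjusted p = 0.0183). It read higher after ouabain on 3 of 3 arrays at each day. The same contrast gave -1.28 (adjusted p = 0.0553) on the gene's main probe set and -0.42 (adjusted p = 0.275) on the dim one. With 3 arrays a group, no test for single outlying arrays was made.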

How the results depend on the processing

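The 2 genes called at 3 days stayed called under every alternative tried, and the count ranged between 2 and 3 with arrays left out, Sox10 being added without control replicate 3. At 7 days the count of 6 fell to 2 with a fold above 2 (Tfap2a and Snai2), to 4 with the methods' t-test after adjustment (without Sox9 and Snai1) or with the mean over probe sets (without Sox9 and Sox10), and ranged between 5 and 6 with arrays left out. The difference of responses, with 0 genes called, had 1 (Tfap2a, -1.25 to -1.62) with the filter on dim probe sets, the second quantile normalization, the 75th percentile, the robust trend, array weights, the mean over probe sets or without 3 replicate 1 arrays, and 0 to 1 with single arrays left out (1 without ouabain replicate 1 at 3 days or replicate 3 at 7 days). Over all genes, 1367 were higher and 1467 lower at 3 days and 1378 and 1492 at 7 days; without a fold threshold these were 2732, 2678, 3121 and 2629, with a fold above 2 they were 634, 789, 429 and 832, and the methods' t-test after adjustment gave 801 higher at 7 days. Member probe sets at 7 days numbered 6 of the 13 with a fold above 2. Sox2 at 7 days was lost with the adjusted t-test (adjusted p = 0.0617).

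Equal replicate numbers were not taken as pairs, since the labels do not say that they share animals. Same-numbered ouabain and control arrays correlated in their deviations at 0.334, 0.0892 and 0.177 at 3 days and 0.277, 0.155 and 0.0189 at 7 days. Arrays of unlike number correlated at -0.273 to 0.146 at 3 days and -0.334 to 0.152 at 7 days. Ouabain replicate 2 at 3 days and replicate 3 at 7 days correlated best with another number. With the replicate block the counts at 3 and 7 days were still 2 and 6, and 2 differences of responses were called, Tfap2a (-1.28, adjusted p = 0.041) and Snai2 (0.90, adjusted p = 0.0312).

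Signs turned only in values that were not called in the main fit. Among these, Snai2 at 3 days went past the fold threshold without control replicate 1 (0.59, limma adjusted p = 0.12). So did the Tfap2b difference of responses without 7-day control replicate 1 (-0.60, limma adjusted p = 0.631). With arrays left out, the 3-day value ranged from -0.19 to 0.0492 (0.04 without ouabain replicate 3) for Sox8, -0.12 to 0.13 (-0.05 without control replicate 2) for Sox9 and -0.0468 to 0.59 for Snai2, the 7-day value from -0.0083 to 0.42 for Sox8 and -0.21 to 0.16 (0.06 without control replicate 3) for Sox11, and the difference of responses from -0.60 to 0.11 for Tfap2b and -0.0048 to 0.39 for Sox11. Sox9 at 3 days was -0.0332 with array weights and -0.12 without 3 replicate 1 arrays, where Snai2 was -0.0468, and Mitf was 0.01 (0.0066) with the mean over probe sets. The cause was not tested. Probe sets under 6, as for Pax3 and Tfap2b, are too dim to bear a firm statement.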
